A study of Homo sapiens with 9 samples.

Results

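ST8SIA6 and 9 other sialyltransferase genes were followed after knockdown of ASXL2 in SKNO-1, an established line of human acute myeloid leukaemia with the RUNX1-RUNX1T1 (AML1-ETO) fusion. ASXL2 is a chromatin-associated Polycomb-group protein. The 10 genes, out of 25680 gene symbols in the count tables, were ST8SIA1, ST8SIA4, ST8SIA6, ST3GAL1, ST3GAL2, ST3GAL3, ST3GAL4, ST3GAL6, ST6GAL1 and ST6GALNAC4. They were picked by symbol, with ST8SIA6 as the lead gene because of its low values with 1 of the shRNAs, so its differences between groups are given as a description and without a test. Messenger RNA was sequenced from 9 samples in 3 groups of 3: EV, the control, and ASXL2 SH2 and ASXL2 SH3, cells carrying either of a pair of different shRNAs against ASXL2. All 9 samples were of this single cell line, and the labels do not explain EV, while the study describes a control shRNA. Each group held samples numbered 1, 13 and 25, and the meaning of the numbers is not given in the sources used here.

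Sialyltransferases are Golgi enzymes that move sialic acid from its activated form, CMP-sialic acid, onto the ends of the sugar chains of glycoproteins and glycolipids. They are grouped by the bond they make. The ST3GAL enzymes attach sialic acid to galactose in an alpha2,3 linkage, the ST6GAL and ST6GALNAC enzymes attach it to galactose or N-acetylgalactosamine in an alpha2,6 linkage, and the ST8SIA enzymes attach it to another sialic acid in an alpha2,8 linkage. On blood cells these terminal sugars form ligands for selectins, which slow leukocytes on vessel walls, and for Siglecs, most of which are inhibitory receptors of immune cells.

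The totals were 27714431 to 35406063 counts per sample with 1 transcript per gene, at which 3 counts, the limit that a count of 0 allows, were 0.0847 to 0.108 CPM (counts relative to library size). The target itself was lowered by both shRNAs: ASXL2 stood at 48.8% ± 4.26 of the same-numbered EV sample in ASXL2 SH2 and at 45.8% ± 8.13 in ASXL2 SH3 (SD, n = 3 pairs). On the first principal component, with 52.9% of the variance, the samples numbered 1 lay at -58.6 (ASXL2 SH3), -24.9 (EV) and -21.2 (ASXL2 SH2), apart from the other 6 at 4.84 to 25.0. ASXL2 SH3 sample 1 stood farthest from the rest, and the values that it decides are given with and without it. Of 8 markers of myeloid blasts with this fusion, 7 averaged at least 1 CPM in every group, among them MPO, KIT and RUNX1T1, whereas CD34 had 2 to 10 counts. Markers of T cells, erythroid cells and epithelium were at or near 0 in every sample.

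ST8SIA6 adds alpha2,8-linked sialic acid mainly to O-glycans, forming the disialylated ends that some Siglecs bind. The gene is protein-coding, lies on chromosome 10 at chr10:17357420-17496594 on the minus strand (GRCh37) and has 8 exons in its canonical GENCODE transcript. Its level, scaled to effective library size, was 15.5, 13.6 and 12.2 CPM in the EV samples numbered 1, 13 and 25 (13.8 ± 1.66, SD, n = 3). It was 13.6, 12.5 and 13.1 CPM in ASXL2 SH2 (13.1 ± 0.547). It was 8.04, 7.26 and 8.92 CPM in ASXL2 SH3 (8.07 ± 0.832). The 3 ASXL2 SH3 samples thus lay below each of the other 6, while ASXL2 SH2 lay within the range of EV. Such groups without overlap were seen for 10.1% of all tested genes for ASXL2 SH3 against EV and 4.66% between the shRNAs. The ST8SIA6 levels rested on 366 to 564 counts per sample in EV, 379 to 407 in ASXL2 SH2 and 235 to 245 in ASXL2 SH3.

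Compared number by number, ST8SIA6 in ASXL2 SH3 was 51.8%, 53.3% and 73.1% of the EV sample of the same number (59.4 ± 11.9, SD, n = 3). Against ASXL2 SH2 it was 59.0%, 57.9% and 67.9% (61.6 ± 5.50). ASXL2 SH2 itself was at 87.9%, 92.1% and 107.6% of EV. On the log2 scale of the fitted model, the difference was -0.77 for ASXL2 SH3 against EV (SE 0.11) and -0.70 for ASXL2 SH3 against ASXL2 SH2 (SE 0.11). For ASXL2 SH2 against EV it was -0.07 (SE 0.11), a value that turned positive, at 0.04, when transcript length was corrected for. ST8SIA6 was chosen on these values, so the standard errors are not read as a test. ST8SIA6 in ASXL2 SH3 thus stood about as far below the other shRNA as below the control. The target ASXL2 differed between the shRNAs by -0.10 on the log2 scale (95% interval -0.32 to 0.12, edgeR adjusted p = 0.706). The comparisons with EV share the 3 EV samples, and those with ASXL2 SH3 share its 3 samples.

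Of the 14199 genes tested, 118 had a log2 fold change as low as that of ST8SIA6 or lower for ASXL2 SH3 against EV, and 98 did for ASXL2 SH3 against ASXL2 SH2. Leaving out ASXL2 SH3 sample 1 gave -0.72 against EV and -0.64 against ASXL2 SH2, and leaving out all 3 samples numbered 1 gave -0.68 on both comparisons. Under the 19 alternatives run, the ASXL2 SH3 value against EV stayed between -0.93 and -0.68. Of the B-cell markers reported here, MS4A1 was at 0 in every sample and CD79A had 54 to 95 counts. PAX5, a B-cell transcription factor that leukaemias with this fusion also express, was at 4.37, 4.93 and 6.07 CPM in EV, 3.08, 3.98 and 4.06 in ASXL2 SH2, and 1.498, 2.41 and 3.39 in ASXL2 SH3. It fell by 1.11 on the log2 scale in ASXL2 SH3 against EV (edgeR adjusted p = 0.0308) and stood at -0.47 in ASXL2 SH2 (95% interval -0.83 to -0.10, edgeR adjusted p = 0.185), also below each EV sample. Of all tested genes, 14.9% did not overlap between ASXL2 SH2 and EV. Without ASXL2 SH3 sample 1, PAX5 passed for both shRNAs. The ASXL2 SH3 value was -0.95 (edgeR adjusted p = 0.00934), and the ASXL2 SH2 value -0.46 (edgeR adjusted p = 0.0385). Over all genes, 368 and 1604 of 14291 passed there. Without all samples numbered 1, only ASXL2 SH3 passed (-0.93, edgeR adjusted p = 0.0105), with -0.44 for ASXL2 SH2 (edgeR adjusted p = 0.186). Markers of monocytes summed to 18.5 to 22.4 CPM in EV, 20.1 to 27.3 in ASXL2 SH2 and 24.2 to 41.5 in ASXL2 SH3, with 1, 2 and 2 of the 4 genes averaging at least 1 CPM. Of these, CD14 had 0 to 3 counts, FCGR3A 0 to 1 and MRC1 6 to 69, and most of the sum was CD68, a lysosomal protein abundant in macrophages. MRC1 was at 0.990, 0.782 and 0.734 CPM in EV and at 2.35, 0.185 and 0.874 in ASXL2 SH3. Its log2 fold change there was 0.23 (edgeR adjusted p = 0.810). CD68 was at 21.4, 17.7 and 19.2 CPM in EV, 25.6, 19.5 and 19.6 in ASXL2 SH2, and 39.1, 23.9 and 24.6 in ASXL2 SH3. It rose in ASXL2 SH3 against EV by 0.56 on the log2 scale (edgeR adjusted p = 0.0483), and by 0.42 without sample 1 of that group (edgeR adjusted p = 0.0195). Markers of fibroblasts and stroma summed to 1.00 to 2.03 CPM over all samples. Their part in the ST8SIA6 values was not tested, and in bulk samples fewer cells of a type and less RNA per cell cannot be told apart.

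**Figure D1:**
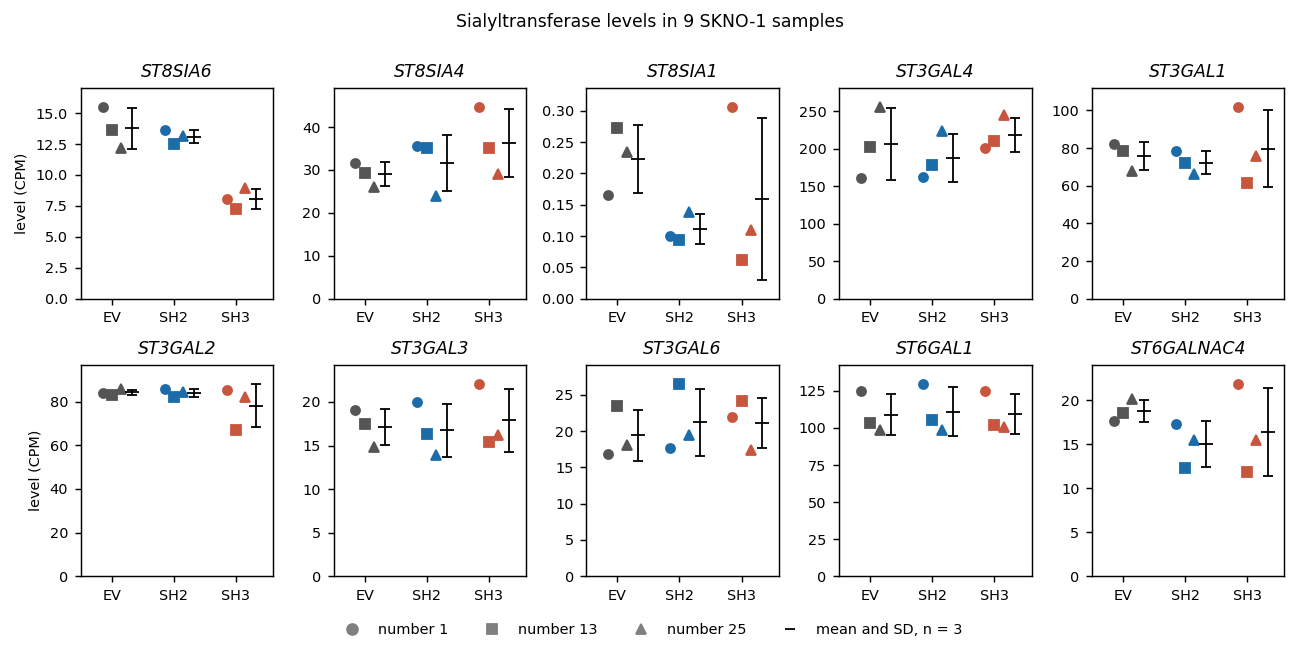
Level in CPM (y axis, linear from 0) of each of the 10 sialyltransferases in the 9 samples, by group (x axis: EV, ASXL2 SH2, ASXL2 SH3), with marker shape for the sample number and a black bar for the mean and SD of 3. For ST8SIA6 the 3 ASXL2 SH3 samples sit at 7.26 to 8.92 CPM, below the 12.2 to 15.5 CPM of the other 6, while for the other genes on this plot apart from ST6GALNAC4 and ST8SIA1 in ASXL2 SH2 the groups overlap. Over all tested genes, groups do not overlap for 14.9% (ASXL2 SH2 against EV), 10.1% (ASXL2 SH3 against EV) and 4.66% (between the shRNAs).

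**Figure D2:**
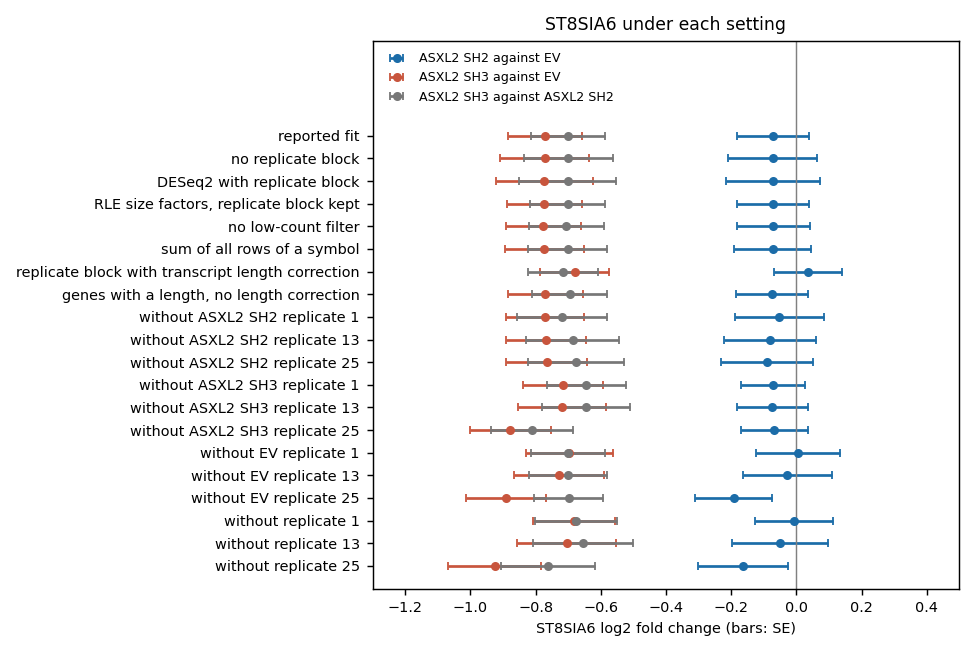
Log2 fold change of ST8SIA6 (x axis) with its standard error in the reported fit and under each of 19 alternatives (y axis), for the 3 group comparisons. Both comparisons with ASXL2 SH3 stay between -0.93 and -0.64 throughout, and the comparison of ASXL2 SH2 with EV stays between -0.19 and 0.04.

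Reads were not assigned to a strand, so transcripts that overlap on opposite strands could not be separated. ST8SIA6 overlaps ST8SIA6-AS1, a non-coding RNA on the other strand, which had 8 to 21 counts per sample against at least 235 for ST8SIA6. Its level was 0.538 ± 0.0725 CPM in EV, 0.595 ± 0.109 in ASXL2 SH2 and 0.396 ± 0.141 in ASXL2 SH3 (SD, n = 3). Its part in the ST8SIA6 counts was not tested.

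The other 8 members that passed the low-count filter were read from the test over all 14199 genes, edgeR's quasi-likelihood test with Benjamini-Hochberg adjustment. None of the 8 passed an adjusted p of 0.05 in any group comparison. Their adjusted p values were 0.252 to 0.988 for ASXL2 SH2 against EV, 0.133 to 0.972 for ASXL2 SH3 against EV and 0.304 to 0.983 for ASXL2 SH3 against ASXL2 SH2. Over all genes, 40 passed for ASXL2 SH2 against EV (0.282%), 59 for ASXL2 SH3 against EV (0.416%) and 15 between the shRNAs (0.106%). Without the sample number in the model, no gene passed in any of the 3 comparisons, though 762, 723 and 293 genes had an unadjusted p under 0.05. The median log2 fold change of the 9 measured members was -0.04, 0.05 and 0.09 in the 3 comparisons, beside 0.01, 0.01 and -0.00 over all genes.

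**Figure D3:**
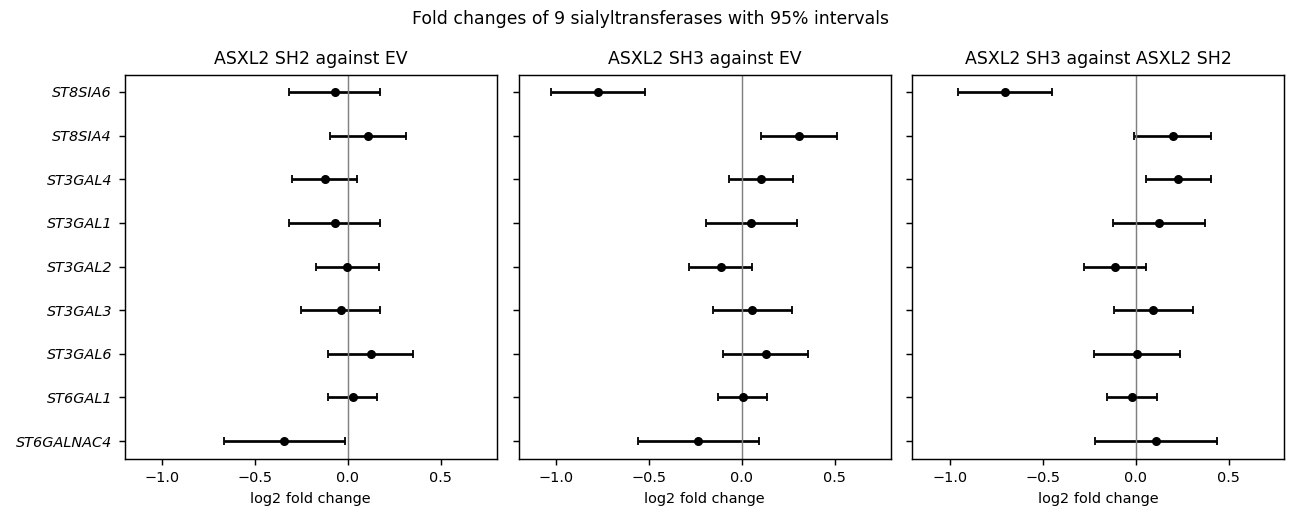
Log2 fold change (x axis) with its 95% interval for 9 sialyltransferases (y axis) in the 3 group comparisons. ST8SIA6 lies at -0.77 and -0.70 in the comparisons that involve ASXL2 SH3, and the other 8 lie between -0.34 and 0.31 in every panel. The gene ST8SIA6 was chosen on these values, so its intervals are not a test.

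Among the other alpha2,8 enzymes, ST8SIA4 lay opposite to ST8SIA6. ST8SIA4 is a polysialyltransferase, which builds long chains of sialic acid on carriers such as NCAM1 and NRP2. Here NRP2 had 0 counts in all 9 samples and NCAM1 had 0 to 4 per sample. ST8SIA4 lies at chr5:100142637-100238986 on the minus strand. Its level was 31.7, 29.3 and 26.1 CPM in EV, 35.6, 35.2 and 24.02 in ASXL2 SH2, and 44.7, 35.1 and 29.0 in ASXL2 SH3. ASXL2 SH3 was higher than the EV sample of the same number in 3 of 3 pairs, at 141%, 120% and 111% of its level, yet the groups overlapped. The log2 fold change was 0.31 (95% interval 0.10 to 0.51) with an edgeR adjusted p of 0.133, which did not pass, and it was 0.22 without ASXL2 SH3 sample 1. ASXL2 SH2 gave 0.11 against EV.

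ST8SIA4 was counted on a long and a short RefSeq transcript. The short one (NM_175052) held 34.8% ± 0.663 of the count of the long one in EV, 31.9% ± 0.606 in ASXL2 SH2 and 32.3% ± 2.78 in ASXL2 SH3 (SD, n = 3). The 3 ASXL2 SH2 values, 31.5% to 32.6%, lay below the 3 EV values, 34.2% to 35.5%, while those of ASXL2 SH3 spanned both. The ASXL2 SH2 and EV values also did not overlap in both other genes for which such a share was taken, ST6GAL1 (91.1% to 91.8% against 89.4% to 90.6%) and ST3GAL6 (89.2% to 90.2% against 87.5% to 87.9%), where the second row held more of the first in ASXL2 SH2. No such share was taken for the other members with several rows. How often the groups separate in such shares over all genes was not counted, and these shares were not tested.

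ST8SIA1 makes the ganglioside GD3. It lies at chr12:22216707-22589975 on the minus strand, where the annotation also places part of CMAS on the opposite strand, and it had 6, 8 and 7 counts in EV, 3, 3 and 4 in ASXL2 SH2 and 9, 2 and 3 in ASXL2 SH3. These counts were close to the floor of 3, the gene did not pass the low-count filter, and no difference was detectable at this depth.

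Among the 10 genes, the alpha2,3 enzymes held the largest share of the RNA. Per kilobase of the canonical GENCODE transcript, ST3GAL4 was highest of them in EV at 114 ± 26.4 CPM per kb (SD, n = 3), followed by ST6GAL1 at 23.7 ± 3.02, and neither overlapped its neighbour in this order. ST3GAL1 (11.3), ST6GALNAC4 (11.01) and ST3GAL2 (10.6) came next with overlapping samples. ST3GAL3 (7.59) and ST3GAL6 (6.08) overlapped each other, and ST8SIA4 (4.59), ST8SIA6 (1.97) and ST8SIA1 (0.0230) followed without overlap. Summed on this scale, alpha2,3 enzymes made up 78.1% of the members' level in EV, 77.6% in ASXL2 SH2 and 79.6% in ASXL2 SH3, alpha2,6 enzymes 18.4%, 18.5% and 16.9%, and alpha2,8 enzymes 3.51%, 3.88% and 3.51%. Only ST8SIA1 was less abundant than ST8SIA6 among the 10, and the summed alpha2,8 share averaged the same in ASXL2 SH3 as in EV. These shares depend on which genes are summed: ST6GALNAC6, an alpha2,6 enzyme outside the 10, stood at 28.2 ± 1.87 CPM per kb in EV, above the mean of ST6GAL1. Over all 20 sialyltransferase genes, a sum chosen after seeing the data, the EV shares were 68.1% alpha2,3, 28.9% alpha2,6 and 3.02% alpha2,8. The counted RefSeq transcript of a gene need not have the length of the canonical one. This limits the order and the summed shares, also where shares are compared between groups. It does not limit the comparisons of a single gene between groups.

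ST3GAL4 sialylates N-acetyllactosamine chains and takes part in making selectin ligands. It lies at chr11:126225535-126310239 on the plus strand, and its level was 160.6, 202.4 and 256.0 CPM in EV, 162.3, 177.9 and 223.1 in ASXL2 SH2, and 200.7, 210.6 and 244.5 in ASXL2 SH3. ASXL2 SH3 exceeded ASXL2 SH2 in 3 of 3 numbers, but the groups overlapped and the log2 difference of 0.23 (95% interval 0.05 to 0.40) had an edgeR adjusted p of 0.304. Without ASXL2 SH3 sample 1 it was 0.15. Against EV the 2 shRNAs gave -0.13 and 0.10. KIRREL3 overlaps ST3GAL4 on the opposite strand and averaged 2.44 CPM in EV.

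ST3GAL1 and ST3GAL2 cap the core 1 O-glycan, the disaccharide that ST6GALNAC4 and ST8SIA6 products build on. ST3GAL1 (chr8:134467091-134584169, minus strand) stood at 76.0 ± 7.42 CPM in EV, 72.3 ± 6.17 in ASXL2 SH2 and 79.8 ± 20.5 in ASXL2 SH3 (SD, n = 3). The wide spread in ASXL2 SH3 came from samples at 102.0, 61.6 and 75.7 CPM, and its log2 fold change against EV went from 0.05 to -0.09 without sample 1 of that group. ST3GAL2 (chr16:70409880-70473140, minus strand) varied little within EV and ASXL2 SH2, at 84.2 ± 1.29 and 84.1 ± 1.78 CPM, and stood at 78.2 ± 9.77 in ASXL2 SH3. Its log2 fold change was -0.00 for ASXL2 SH2 against EV (95% interval -0.17 to 0.17), and correction for transcript length moved it to 0.13.

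ST3GAL3 and ST3GAL6, like ST3GAL4, act on N-acetyllactosamine chains, and neither passed in a group comparison. ST3GAL3 (chr1:44171495-44396837, plus strand) was at 17.1 ± 2.10 CPM in EV, 16.7 ± 3.05 in ASXL2 SH2 and 17.9 ± 3.61 in ASXL2 SH3. ST3GAL6 (chr3:98451080-98540045, plus strand) was at 19.4 ± 3.50, 21.2 ± 4.64 and 21.1 ± 3.43 CPM (SD, n = 3). By number, ST3GAL6 in ASXL2 SH2 was above EV in 3 of 3 pairs, at 105.0%, 113.0% and 107.8% (108.6 ± 4.07), and its log2 fold change was 0.12 (95% interval -0.11 to 0.35, edgeR adjusted p = 0.551). KDM4A-AS1 overlaps ST3GAL3, and ST3GAL6-AS1 and DCBLD2 overlap ST3GAL6, each on the opposite strand. In EV they averaged 12.3, 0.169 and 36.4 CPM, so DCBLD2 stood above ST3GAL6 itself. Their part in the ST3GAL3 and ST3GAL6 counts was not tested.

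Of the alpha2,6 enzymes, ST6GAL1 had the narrowest intervals around 0, and ST6GALNAC4 lay below EV in most of the shRNA samples. ST6GAL1, which caps N-glycans and makes the ligand of CD22, lies at chr3:186648114-186796341 on the plus strand. Its level was 109.0 ± 13.9 CPM in EV, 111.1 ± 16.2 in ASXL2 SH2 and 109.3 ± 13.6 in ASXL2 SH3. The intervals of its log2 fold changes against EV were the narrowest among the members, -0.11 to 0.16 for ASXL2 SH2 and -0.13 to 0.14 for ASXL2 SH3, so a change of the size seen for ST8SIA6 lay outside them.

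ST6GALNAC4 adds the second sialic acid to sialylated core 1 O-glycans. It lies at chr9:130670165-130679320 on the minus strand, and its level was 17.7, 18.5 and 20.2 CPM in EV, 17.3, 12.3 and 15.5 in ASXL2 SH2, and 21.8, 11.8 and 15.5 in ASXL2 SH3. All 3 ASXL2 SH2 samples lay below all 3 EV samples, narrowly so at number 1, whereas ASXL2 SH3 sample 1 lay above EV. Groups that do not overlap were seen for 14.9% of all tested genes in the comparison of ASXL2 SH2 with EV, 10.1% in that of ASXL2 SH3 with EV and 4.66% between the shRNAs. The log2 fold change of ST6GALNAC4 was -0.34 for ASXL2 SH2 (95% interval -0.67 to -0.02, edgeR adjusted p = 0.252) and -0.23 for ASXL2 SH3 (edgeR adjusted p = 0.415). It passed for ASXL2 SH2 at -0.33 without ASXL2 SH3 sample 1 (edgeR adjusted p = 0.0454), where 1604 of 14291 genes passed. Without the samples numbered 1 it passed for both shRNAs, at -0.48 (edgeR adjusted p = 0.0303) and -0.51 (edgeR adjusted p = 0.0177). Over all genes, 267 and 341 of 14083 passed there.

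Several members held their highest level in ASXL2 SH3 sample 1, the sample that stood apart on the first principal component. For ST8SIA4, ST3GAL1, ST3GAL3 and ST6GALNAC4 it was the highest of the 9 samples, at 44.7, 102.0, 22.0 and 21.8 CPM. ST8SIA6 was chosen for its low values in ASXL2 SH3 and so could not show this. Its value in that sample, 8.04 CPM, was the middle one of its group.

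The sample numbers were not used to choose the genes, and differences between them were tested in the same fit over all 9 samples. They were wide across the transcriptome, with 6691 of 14199 genes (47.1%) past the threshold, and 5 of the 9 measured sialyltransferases were among them, a share near that background. Each p below is from an F test of both differences together, 13 and 25 from 1, so no single difference has its own p. ST3GAL4 rose with number 25, by 0.47 on the log2 scale over number 1 (edgeR adjusted p = 0.00342). ST6GAL1 was lower by 0.29 and 0.35 in numbers 13 and 25 (log2 differences of -0.29 and -0.35, edgeR adjusted p = 0.00302). ST8SIA4 was lowest in number 25, at -0.49 against number 1 (edgeR adjusted p = 0.00612), and ST3GAL3 also fell by 0.44 there (edgeR adjusted p = 0.0102). ST3GAL6 was highest in number 13, at 0.40 above number 1 (edgeR adjusted p = 0.0109). ST8SIA6 differed little between numbers, with log2 differences of -0.15 and -0.09 (edgeR adjusted p = 0.477), and neither ST3GAL1, ST3GAL2 nor ST6GALNAC4 passed (edgeR adjusted p = 0.0513, 0.252 and 0.0750). For ST3GAL4 the log2 difference between the samples numbered 25 and 1, 0.47, exceeded each of its differences between groups.

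**Figure D4:**
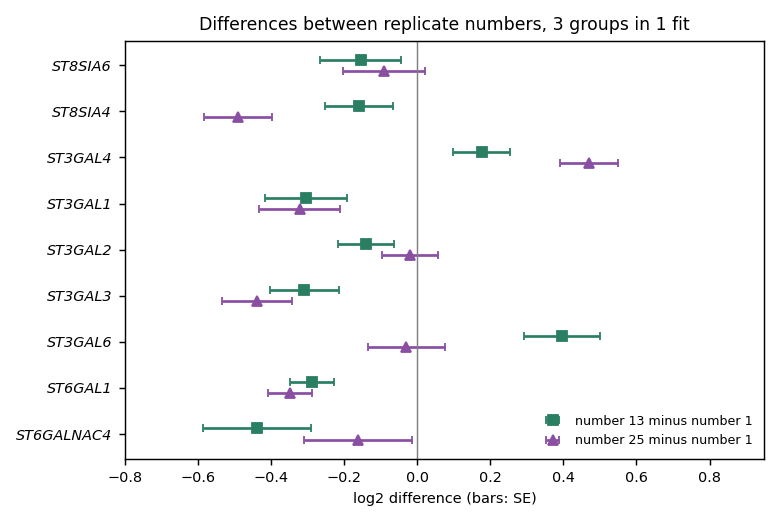
Log2 difference (x axis) of the samples numbered 13 (squares) and 25 (triangles) from those numbered 1 for 9 sialyltransferases (y axis), with standard errors, from a single fit over the 3 groups. ST3GAL4 rises to 0.47, ST8SIA4 falls to -0.49, and ST8SIA6 stays at -0.15 and -0.09.

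The remaining 10 sialyltransferase genes were mostly not detected in this line. ST6GAL2, ST6GALNAC1, ST6GALNAC3, ST6GALNAC5, ST8SIA2 and ST8SIA3 had 0 counts in all 9 samples, which at these depths allows up to 0.0847 to 0.108 CPM, and ST8SIA5 had 0 to 2. Of the 3 that were tested, ST3GAL5, ST6GALNAC2 and ST6GALNAC6, none passed in a group comparison. ST3GAL5, which makes the ganglioside GM3, was at 5.86, 4.29 and 4.73 CPM in EV, 5.93, 3.13 and 3.50 in ASXL2 SH2, and 13.7, 3.67 and 3.75 in ASXL2 SH3. The high mean of that group thus came from sample 1: its log2 fold change against EV was 0.31 with that sample and -0.20 without it (edgeR adjusted p = 0.543 and 0.511). ST6GALNAC6 was at 73.0, 64.1 and 67.2 CPM in EV and 96.5, 49.8 and 58.2 in ASXL2 SH3. Its log2 fold change there was -0.04 with sample 1 of that group and -0.28 without it (edgeR adjusted p = 0.885 and 0.0569).

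The genes around the sialyltransferases were described by 5 further lists, and no gene of any list passed in any of the 3 group comparisons. The lists were synthesis and transport of sialic acid (8 of 8 tested), sialidases (1 of 4), enzymes that build the acceptor chains (21 of 23), receptors that bind sialic acid (9 of 17) and sialylated carrier proteins (6 of 9). Their median log2 fold changes for ASXL2 SH3 against EV were 0.08, -0.26 (a single gene), 0.03, 0.11 and 0.04, beside 0.01 over all genes. Leaving out ASXL2 SH3 sample 1 raised the count over all genes for ASXL2 SH2 against EV from 40 of 14199 to 1604 of 14291. In that comparison 7 genes of these lists then passed: NEU3, GALNT3, GCNT1, MGAT5, SIGLEC5, SIGLEC6 and SPN. They were 0 of 8 synthesis genes, 1 of 1 sialidases, 3 of 21 acceptor enzymes, 2 of 10 receptors and 1 of 6 carriers. Beside the count over all genes, this is not read as a result about these lists. MGAT5 then also passed for ASXL2 SH3 against EV, where 368 of 14291 genes did. SELPLG passed between the shRNAs, where 103 of 14291 did.

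In the synthesis list the smallest adjusted p belonged to CMAS, which activates sialic acid to CMP-sialic acid. It was at 56.5, 53.1 and 59.0 CPM in EV, 66.8, 57.5 and 66.9 in ASXL2 SH2, and 88.2, 63.4 and 64.1 in ASXL2 SH3, above EV in all 3 ASXL2 SH3 samples. A lack of overlap between ASXL2 SH3 and EV was seen for 10.1% of all tested genes. The log2 fold change of CMAS in ASXL2 SH3 was 0.35 (edgeR adjusted p = 0.118), and 0.20 without sample 1 (edgeR adjusted p = 0.135). Among sialidases, NEU3, which removes sialic acid from gangliosides at the plasma membrane, had log2 fold changes of -0.31 for ASXL2 SH2 and -0.26 for ASXL2 SH3 (edgeR adjusted p = 0.158 and 0.214). NEU1, the lysosomal sialidase of most cells, was listed with 1 count over the 9 samples, so its level was not measured by these counts.

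Among the enzymes that build acceptors, GALNT3, which starts O-glycans, had the smallest p for ASXL2 SH2 against EV, at -0.26 (edgeR adjusted p = 0.147). B4GALT6, a lactosylceramide synthase, had it for ASXL2 SH3 against EV, at -0.28 (edgeR adjusted p = 0.196). GALNT1, another starter of O-glycans, had it between the shRNAs, at -0.30 (edgeR adjusted p = 0.136). Among the receptors, the Siglec genes SIGLEC5 for ASXL2 SH2 (0.33, edgeR adjusted p = 0.174) and SIGLEC12 for ASXL2 SH3 (0.19, edgeR adjusted p = 0.222) came closest. The widest values of that list were those of CD22, a Siglec of B cells, at -1.40 for ASXL2 SH2 against EV and 1.20 between the shRNAs (edgeR adjusted p = 0.260 and 0.462), on 1 to 99 counts per sample. The 99 were in ASXL2 SH3 sample 1, without which the value between the shRNAs turned to -0.16 (edgeR adjusted p = 0.982). Without all samples numbered 1, CD22 passed for ASXL2 SH2 against EV, at -2.77 (edgeR adjusted p = 0.0187), where 267 of 14083 genes passed.

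The carriers held the smallest adjusted p values of these lists. SELPLG, the P-selectin ligand PSGL-1, was at 21.4, 12.7 and 11.7 CPM in EV, 21.6, 11.6 and 9.25 in ASXL2 SH2, and 43.3, 15.3 and 16.5 in ASXL2 SH3. It was higher in ASXL2 SH3 at each number, with a log2 difference of 0.62 against EV (edgeR adjusted p = 0.0720) and 0.76 against ASXL2 SH2 (edgeR adjusted p = 0.0832), but the groups overlapped. Without ASXL2 SH3 sample 1 these were 0.42 (edgeR adjusted p = 0.0600) and 0.56 (edgeR adjusted p = 0.0399). SPN, the leukocyte sialoglycoprotein CD43, was at 79.4% ± 2.91 of EV in ASXL2 SH2 by number (SD, n = 3), a log2 fold change of -0.33 with an edgeR adjusted p of 0.0963, which was 0.0118 without ASXL2 SH3 sample 1.

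**Figure D5:**
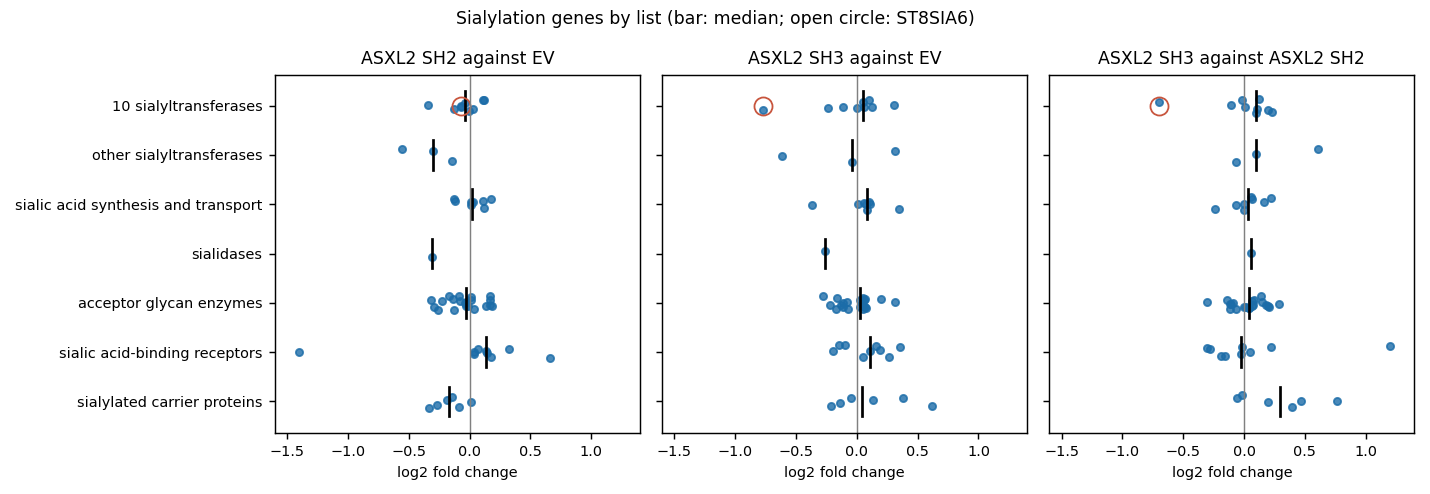
Log2 fold change (x axis) of each tested gene of the 10 sialyltransferases and of 6 related lists (y axis), with a bar at the list's median, for the 3 group comparisons. ST8SIA6 (open circle) lies at -0.77 and -0.70 in the panels with ASXL2 SH3, apart from the other members, which lie between -0.34 and 0.31.

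The genes whose pattern was most like that of ST8SIA6 were sought over the 9 samples by Pearson's r of log2 CPM after the mean of each sample number was taken off, among 10578 genes of at least 5 CPM on average. The 5 highest were DMWD (0.997), HOMER3 (0.982), ZNF260 (0.978), RPP25 (0.974) and TRAF7 (0.974). DMWD averaged 12.1 CPM in EV, 11.9 in ASXL2 SH2 and 8.70 in ASXL2 SH3. Of the members, ST8SIA4 (-0.842) and ST3GAL4 (-0.742) ran most opposite to ST8SIA6, and ST3GAL2 (0.663) was the most similar. The samples share their libraries and normalization, and these values are a description of 9 points.

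Promoter windows of RefSeq (GRCh38.p14, from 250 bases before to 50 after a start) were at hand for 7 of the 10 members, in 12 windows. They were missing for ST8SIA6, ST3GAL1 and ST3GAL2. The core motif of the RUNX factors, TGTGGT on either strand, was in 0 of the 12 windows and in 13.1% of all 35116 windows, which says only that these letters are not in those windows.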

How the data were processed

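RNA of 9 SKNO-1 samples was sequenced from TruSeq RNA libraries, which the study's methods describe as unstranded and poly(A)-selected. The labels' extraction text is about cells sorted from marrow and does not match the cell line they name, which was taken as the source. The cells were grown, per the study's methods, in medium with serum and GM-CSF. The authors deposited whole-number counts per RefSeq transcript, not normalized, on hg19 (GRCh37). The submitters' processing notes name STAR, featureCounts and DESeq2 without versions, and which of them made these files is not given in the sources used here.

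Each of the 25680 symbols was represented by its row with the highest total. Reads shared by isoforms were counted in several of the 48104 rows. Genes were kept by filterByExpr (minimum count 10, minimum total 15), which left 14199. TMM scaling and the quasi-likelihood F test of edgeR 4.0.16 (R 4.3.3) were applied to all 9 samples, with group and sample number as terms and 4 residual degrees of freedom. P values were adjusted by Benjamini-Hochberg over all tested genes, with a threshold of 0.05. The script was tested on simulated data. Totals were 27714431 to 35406063 counts per sample. Floors cover counting error only. The study's methods call the replicates biological, and the labels do not say how they were made. P values of the reported fit measure the spread left between these samples once group and sample number are in the model.

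The number was kept in the model because the groups are compared by number and the labels give each group the same numbers. Deviations from the group means correlated in every one of 9 same-numbered pairs (mean r 0.598, lowest 0.398), which share samples. The mean of -0.291 over 18 pairs of different numbers largely follows from this, since deviations within a group cancel out. It is no separate support. The 10 members and all lists were chosen with earlier results of these data known. The text names all members, the genes with the smallest p of each list where none passed, and the 5 genes most like ST8SIA6 (CMAS and SELPLG levels are shown for that reason). PAX5, CD68, MRC1, CD22, ST6GALNAC6 and the genes that passed without ASXL2 SH3 sample 1 were named after their values were seen. A result that needs a withheld item is not reported here. Alternatives were no block, DESeq2 1.42.0, RLE size factors, no filter, summed rows, a correction for transcript length, and leaving out each sample or number. No pair of replicates agreed within sampling noise.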

Additional observations from a re-analysis of the deposited data

How the results depend on the processing

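How many genes were called moved with the settings, given in the order ASXL2 SH2 against EV, ASXL2 SH3 against EV and ASXL2 SH3 against ASXL2 SH2, where the reported fit with the sample number as a replicate block called 40, 59 and 15. Without the replicate block 0, 0 and 0 genes were called by edgeR (762, 723 and 293 at an unadjusted p under 0.05), and DESeq2 with the block called 374, 474 and 152. Without the low-count filter the counts were 307, 410 and 162, and with the rows of a symbol summed they were 4, 26 and 6. With the length correction they were 7, 18 and 15, and 39, 49 and 12 over the same genes with no correction, a setting chosen after seeing the data. Leaving out 1 sample or number gave 0 to 1604, 1 to 368 and 0 to 257 genes, with the first 2 maxima reached without ASXL2 SH3 sample 1 and the third without ASXL2 SH3 sample 13. Between the sample numbers, 6691 genes became 2189 to 6192 when samples were left out. The cause was not tested.

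For the 8 tested members other than ST8SIA6, 423 of 456 values under the alternatives kept their direction and their side of the threshold, 3 newly passed (all ST6GALNAC4, given in the report) and 30 changed sign, all of them without passing. With the length correction, ST3GAL1 and ST3GAL2 turned to 0.0265 and 0.126 for ASXL2 SH2 against EV. ST3GAL6 between the shRNAs turned from 0.01 to -0.00365 without the block and to -0.000857 with summed rows. The other 26 sign changes came from leaving out samples. For ASXL2 SH2 against EV the values then ran from -0.144 to 0.0430 (ST3GAL1), -0.0459 to 0.0494 (ST3GAL2) and -0.106 to 0.0346 (ST3GAL3). For ASXL2 SH3 against EV they ran from -0.0909 to 0.242 (ST3GAL1), -0.0289 to 0.172 (ST3GAL3), -0.00575 to 0.191 (ST3GAL4), -0.0202 to 0.221 (ST3GAL6) and -0.00487 to 0.0170 (ST6GAL1). Between the shRNAs they ran from -0.0172 to 0.299 (ST3GAL1), -0.151 to 0.102 (ST3GAL6) and -0.110 to 0.245 (ST6GALNAC4). Only 3 samples per group limit the precision, and ST8SIA1 was too low to test.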
